A study of Mus musculus with 32 samples.

Results

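The 10 genes described here encode the folding machinery of the endoplasmic reticulum (ER) and some of its regulators: Hspa5, Hsp90b1, Calr, Canx, Pdia3, Pdia4, Pdia6, Dnajb9, Xbp1 and Herpud1. They were taken by gene symbol, from a list made with earlier results of these data known, and all 10 were found among the 17757 genes counted. Most are chaperones or disulfide isomerases, but Xbp1 encodes a transcription factor and Herpud1 a membrane protein of ER-associated degradation, so the name ER chaperones holds for the set only loosely. They were measured by polysome profiling of 4T1 spheroids, grown from a mouse mammary carcinoma cell line and kept in lung-like medium (LLM) over 5 days, which imitates the nutrients of lung interstitial fluid. There were 4 conditions with 4 pellets each: ASP shSCR (700 µM aspartate, scramble shRNA), NoASP shSCR (no aspartate added, scramble shRNA), ASP shGRIN2D (aspartate, shRNA against the NMDA receptor subunit gene Grin2d) and ASP shDHPS (aspartate, shRNA against Dhps, whose enzyme starts the hypusination of the translation factor eIF5A). Each pellet gave a polysomal library (mRNA carrying more than 3 ribosomes) and a sub-polysomal library (mRNA carrying fewer), which makes 32 libraries of 12870563 to 25639437 counts. The shRNAs were delivered by lentivirus and the lines selected as pools of cells with puromycin, so each knockdown stands for 1 polyclonal line, and the scramble line is the control for both.

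Proteins that are secreted or placed in membranes fold in the ER. Hspa5 (BiP) and Hsp90b1 (GRP94) are its soluble chaperones of the Hsp70 and Hsp90 families, Calr and Canx are the soluble and the membrane-bound lectin chaperones that hold glycoproteins, Pdia3, Pdia4 and Pdia6 form and rearrange disulfide bonds, and Dnajb9 is a cochaperone of Hspa5. When unfolded proteins accumulate, the sensors ATF6, IRE1 and PERK start the unfolded protein response. IRE1 splices the Xbp1 mRNA, and both XBP1 and ATF6 then switch on genes of this kind through ER stress response elements in their promoters. Counts per gene do not separate spliced from unspliced Xbp1 mRNA.

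The elements that define this regulation are shown because they are what several of the 10 genes have in common outside the counts. The ER stress response element (ERSE) was searched as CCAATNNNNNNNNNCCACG and the related ERSE-II as ATTGG, any base and CCACG, on both strands, in the 300 bases around each gene's start (250 before, 50 after) taken from RefSeq on GRCm38.p6. Of 32851 such promoters, 0.119% held an ERSE and 0.0365% an ERSE-II. Counted by gene symbol, the shares were 0.137% and 0.0444% of 27025. Of the 10 genes, 5 held at least 1 ERSE (2 in Hsp90b1) and Herpud1 held an ERSE-II. The elements are known from genes of this kind, so their presence here is a description and not a test. The matches follow 5′ to 3′ on the strand of the gene, with the element in capitals. A match read on the opposite strand begins with CGTGG.
Hspa5, chr2:34772017-34772051, plus strand: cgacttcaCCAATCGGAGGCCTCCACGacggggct
Hsp90b1, chr10:86705630-86705664, minus strand: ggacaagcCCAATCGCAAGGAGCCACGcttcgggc
Hsp90b1, chr10:86705525-86705559, minus strand, match on the opposite strand: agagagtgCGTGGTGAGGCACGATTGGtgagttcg
Calr, chr8:84847067-84847101, minus strand, match on the opposite strand: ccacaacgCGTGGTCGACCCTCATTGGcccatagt
Canx, chr11:50325792-50325826, minus strand: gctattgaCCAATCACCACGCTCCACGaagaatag
Pdia6, chr12:17266483-17266517, plus strand: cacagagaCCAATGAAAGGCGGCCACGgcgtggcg
Herpud1, ERSE-II, chr8:94386369-94386395, plus strand: gggcgctgATTGGGCCACGttggacac
All 7 matches lay before the gene's start. The promoters of Pdia3, Pdia4, Dnajb9 and Xbp1 held neither form, which says only that these letters are not in that window. The unfolded protein response element TGACGTGG was in none of the 10 and in 0.676% of all promoters.

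The labels were first checked against the counts. The epithelial markers Epcam, Krt8, Krt18 and Krt19 were counted in every library, the lowest value being 38.8 CPM for Krt19 (CPM, counts scaled to a common library size), while the leukocyte marker Ptprc reached 0.890 CPM and the endothelial marker Pecam1 0.623 CPM at most. Pdgfra, a marker of fibroblasts, reached 36.7 CPM. Cd68, a marker of macrophages, had its highest mean in the polysomal libraries of ASP shDHPS, with 19.3 to 27.8 CPM against 10.8 to 13.4 CPM in ASP shSCR (level difference -0.94 ± 0.21, unadjusted p = 0.000254, edgeR adjusted p = 0.0684), and its ratio difference was -0.77 ± 0.26 (edgeR adjusted p = 0.167). Neither passed. Its part in the comparisons with ASP shDHPS was not tested. Dhps was at 8.84 to 13.6 CPM in the polysomal libraries of ASP shDHPS and at 23.4 to 45.5 CPM in those of ASP shSCR, a fitted log2 difference of 1.64 ± 0.23 (SE, edgeR adjusted p = 0.0167). Grin2d was at 1.11 to 2.45 CPM in the polysomal libraries of ASP shGRIN2D and at 2.80 to 4.26 CPM in ASP shSCR, and its difference of 1.14 ± 0.33 did not pass the adjusted threshold of 0.05 (edgeR adjusted p = 0.263).

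A library stood apart. Each library was placed between the average sub-polysomal (0) and the average polysomal (1) profile of the conditions other than its own, over 11046 genes. ASP shSCR replicate 1 reached only 0.372 in its polysomal library. For the remaining 15 polysomal libraries the range was 0.777 to 1.27, and for the 16 sub-polysomal ones -0.114 to 0.162. The lowest of the 15, at 0.777, was ASP shSCR replicate 2, and the next, at 0.841, was ASP shGRIN2D replicate 2. Values without the pellet of ASP shSCR replicate 1 are therefore given for the set and beside several of the results below. Those values still include ASP shSCR replicate 2, and its part in them was not tested.

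The mRNAs of the folding machinery were abundant, and more so on polysomes. Together the 10 genes took 0.320% to 0.723% of the counts of a polysomal library and 0.148% to 0.261% of a sub-polysomal one, so the ranges did not overlap. Per kilobase of exon (GENCODE M21 gene lengths), Calr was highest in the polysomal fraction, with a median of 475 CPM per kilobase over the 16 libraries (252 to 693). Pdia3 (274), Hspa5 (271) and Hsp90b1 (230) followed, with ranges that overlapped widely. Canx came next at 144, then Pdia6 at 106 and Pdia4 at 98.8, the last 2 again overlapping. The stress-response members were lowest, with 37.2 CPM per kilobase for Xbp1, 24.9 for Herpud1 and 11.1 for Dnajb9. In the sub-polysomal fraction Calr was again highest at 175 CPM per kilobase, followed by Pdia3 (99.1). There the median of Canx (77.6) was above those of Hspa5 (66.5) and Hsp90b1 (65.7), though their ranges overlapped widely. Herpud1 had the lowest median at 8.50, below Dnajb9 at 10.7, again with overlapping ranges. The lowest single count of any of the 10 genes in any library was 252, for Herpud1, so none was limited by low counts.

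How far an mRNA sits on polysomes was measured per pellet as the log2 ratio of its polysomal to its sub-polysomal CPM, with 1 scaling over all 32 libraries. Of the 10 genes, 9 passed the test as higher in the polysomal fraction in each of the 4 conditions (edgeR quasi-likelihood test, adjusted p under 0.05), and none passed as lower. Among all genes, 20.8%, 23.7%, 23.0% and 21.8% passed as higher in ASP shSCR, NoASP shSCR and the knockdowns ASP shGRIN2D and ASP shDHPS, and 18.9%, 20.6%, 20.4% and 21.3% as lower. The median over the 10 genes was 1.16, 1.38, 1.56 and 1.54 in the same order, against medians over all genes between -0.09 and 0.00. Only Dnajb9 did not pass in any condition. Xbp1 in NoASP shSCR and ASP shGRIN2D and Canx in ASP shDHPS were nearest to the threshold (edgeR adjusted p = 0.0300, 0.0327 and 0.0222). Without any 1 of the 4 pellets of its own condition, Xbp1 no longer passed in NoASP shSCR (edgeR adjusted p from 0.0635 to 0.132) or in ASP shGRIN2D (0.0858 to 0.116), and Canx no longer passed in ASP shDHPS without replicate 1, 2 or 4 (0.0613 to 0.0950). A ratio is relative to the other mRNAs of the same 2 libraries and not an absolute count of ribosomes.

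**Figure D1:**
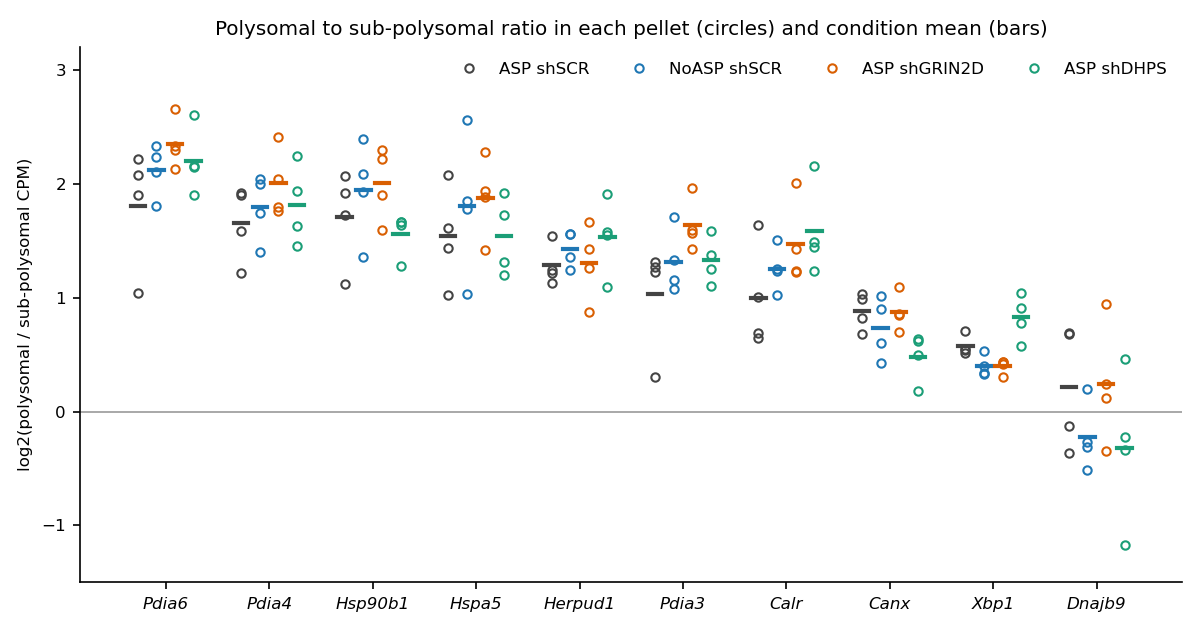
Log2 ratio of polysomal to sub-polysomal CPM for each gene (x axis), with a circle for each of the 4 pellets of a condition, a bar for the condition mean and colour for the condition. All 16 circles of 9 genes lie above 0, Pdia6 is highest, and the circles of Dnajb9 spread from -1.17 to 0.94.

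The disulfide isomerase Pdia6 had the highest ratio of the set. On the common scale it was at 228, 283, 398 and 380.5 CPM in the polysomal libraries of ASP shSCR and at 111, 75.7, 85.7 and 90.3 CPM in the sub-polysomal libraries of the same pellets. In NoASP shSCR the polysomal values were 437, 287, 400.2 and 433 CPM, and the sub-polysomal ones 102, 82.2, 79.4 and 91.6 CPM. Every polysomal value was above every sub-polysomal one. Over the 16 pellets the log2 ratio of Pdia6 was 2.12 ± 0.37 (SD), a median of 4.44-fold, which placed it at percentile 99.7 of all genes. Within the conditions the fitted ratio ran from 1.81 ± 0.20 (SE) in ASP shSCR to 2.35 ± 0.20 in ASP shGRIN2D (2.00 in ASP shSCR without replicate 1), with adjusted p of at most 1.2e-07 (edgeR). Pdia4, a larger isomerase with several thioredoxin-like domains, was at 1.82 ± 0.31 (SD, n = 16). Pdia3, the isomerase that works with the lectin chaperones on glycoproteins, was lower at 1.33 ± 0.36.

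The soluble chaperones were close behind. Hspa5 was at 572, 599, 1113 and 1143 CPM in the polysomal libraries of ASP shSCR and at 281, 222, 364 and 271 CPM in the sub-polysomal ones. Its ratio over the 16 pellets was 1.69 ± 0.43 (SD), with a range of 1.02 to 2.56, and its SD was the largest of the 9 genes that passed. Hsp90b1 was at 1.80 ± 0.37 (1.12 to 2.39). Both stood above percentile 98 of all genes, at 98.3 and 99.0.

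The lectin chaperones serve the same glycoprotein cycle. Calr, which is soluble in the lumen, was at 1.33 ± 0.40 (SD, n = 16), and Canx, which spans the membrane, at 0.74 ± 0.25. Calr exceeded Canx in 13 of 16 pellets, by 0.58 ± 0.47 (SD). The 3 exceptions were all in ASP shSCR, where only replicate 3 had Calr above Canx (1.64 against 0.99). The gap was 0.11 ± 0.36 (SD, n = 4) in ASP shSCR, its sign resting on that pellet. It was 0.52 ± 0.14 in NoASP shSCR, 0.60 ± 0.27 in ASP shGRIN2D and 1.098 ± 0.474 in ASP shDHPS. No test was made of the gap.

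Xbp1 and Dnajb9 lay lower, and Herpud1 did not. Herpud1 had a ratio of 1.39 ± 0.26 (SD, n = 16), among the chaperones. Xbp1 was at 0.55 ± 0.21, above 0 in 16 of 16 pellets, with the smallest SD of the 10 genes. Dnajb9 was at -0.02 ± 0.54, above 0 in 7 of 16 pellets. Its polysomal CPM on the common scale was 31.97, 51.0, 27.9 and 21.6 in ASP shSCR, against 19.8, 31.8, 30.5 and 27.9 in the sub-polysomal libraries, so the 2 fractions overlapped. The fitted ratios of Dnajb9 were 0.22 ± 0.23 (SE), -0.22 ± 0.23, 0.24 ± 0.23 and -0.32 ± 0.23 in ASP shSCR, NoASP shSCR and the knockdowns ASP shGRIN2D and ASP shDHPS, with adjusted p from 0.301 to 0.494 (edgeR). The pellets of ASP shSCR were at 0.69, 0.68, -0.13 and -0.36, and refitted without replicate 1 the value in ASP shSCR was 0.00024.

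In the order of mean ratios, the steps from Pdia6 to Pdia4 and from Calr to Canx were larger than their spread over pellets. Pdia6 exceeded Pdia4 in 15 of 16 pellets, by 0.30 ± 0.16 (SD), and Calr exceeded Canx by 0.58 ± 0.47, though not in most pellets of ASP shSCR. Pdia4 and Hsp90b1 differed by 0.01 ± 0.25, Hsp90b1 and Hspa5 by 0.11 ± 0.23, Hspa5 and Herpud1 by 0.30 ± 0.49, Herpud1 and Pdia3 by 0.06 ± 0.37 and Pdia3 and Calr by 0.00 ± 0.31, each within its spread over pellets. Canx was above Xbp1 in 12 of 16 pellets (0.19 ± 0.42) and Xbp1 above Dnajb9 in 14 of 16 (0.57 ± 0.64), also within the spread. Dnajb9 and Xbp1, which have the lowest ratios, also have the shortest coding sequences of the 10 genes, 666 and 801 bases against 1173 to 2406 for the others (GENCODE M21). Among all 13431 counted genes with a coding length, those under 900 bases had a median ratio of -0.25, and those of 900 to 1500, 1500 to 2500 and above 2500 bases had medians of 0.11, 0.23 and 0.24. The part of coding length in the ratios of the 10 genes was not tested.

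**Figure D2:**
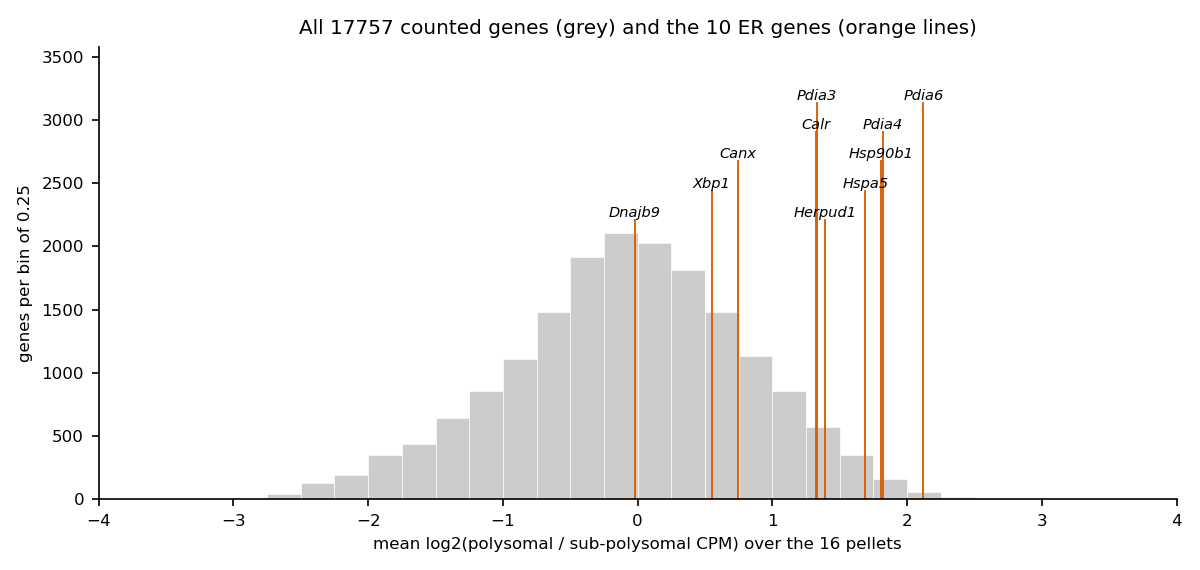
Number of genes (y axis, bins of 0.25) by mean log2 ratio of polysomal to sub-polysomal CPM over the 16 pellets (x axis), for all 17757 genes in grey, with the 10 ER genes as labelled orange lines. Genes beyond the ends of the axis are not drawn. Of the 10, 7 lie above 1, where 11.4% of all genes lie, and Dnajb9 lies near the middle at -0.02.

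The question of the design is whether aspartate, NMDA receptor signaling through GRIN2D or hypusination through DHPS changes the ratio, asked as ASP shSCR minus each other condition. No gene of the 10 passed in any of these 3 comparisons (edgeR, adjusted p under 0.05). Among all genes 0% passed with NoASP shSCR as the other condition, 0% with ASP shGRIN2D and 0.208% with ASP shDHPS. At an unadjusted p under 0.05 there were 0, 1 and 0 of the 10 genes and 343, 571 and 2416 of all genes, and DESeq2 also called 0, 0 and 0 of the 10, where it called 0%, 0% and 3.53% of all genes. The 30 differences ran from -0.61 to 0.54, with 95% intervals of median half-width 0.55 that together reached from -1.18 to 1.21. Changes of up to about these sizes could thus not be told from none. The 3 comparisons share the ASP shSCR libraries.

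The median difference over the 10 genes was -0.19 for NoASP shSCR, -0.32 for ASP shGRIN2D and -0.20 for ASP shDHPS, that is, lower ratios in ASP shSCR, where the median over all genes was -0.02, -0.01 and 0.01. Without the pellet of ASP shSCR replicate 1 the medians were -0.06, -0.21 and -0.07, and still none of the 10 genes passed. Against NoASP shSCR, for example, the difference of Pdia6 was -0.31 with and -0.07 without that pellet, and that of Hsp90b1 -0.23 and -0.06.

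**Figure D3:**
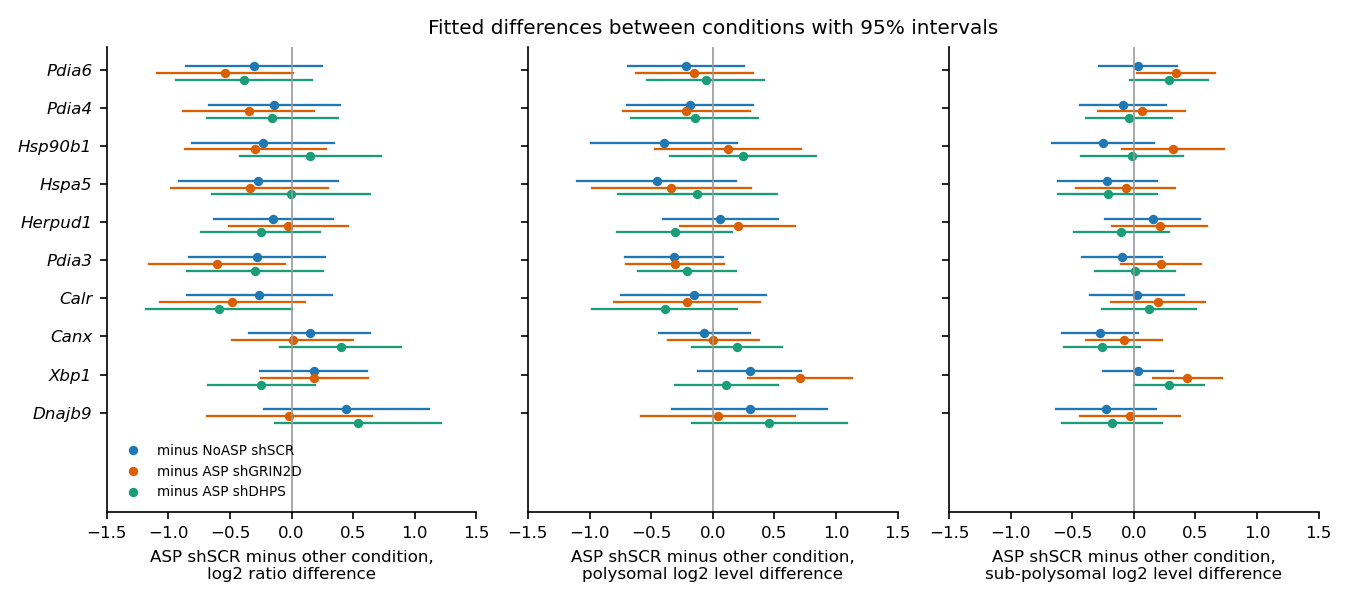
Fitted log2 differences, ASP shSCR minus the other condition (x axes), for the 10 genes (y axis), as points with 95% intervals coloured by the other condition. The left panel gives ratios, the middle polysomal levels and the right sub-polysomal levels, and intervals that exclude 0 are seen for Pdia3 (ratio), Xbp1 (both levels) and Pdia6 (sub-polysomal level).

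With all pellets kept, Pdia3 had the largest ratio difference. Its log2 ratio was 0.31, 1.32, 1.27 and 1.22 in the pellets of ASP shSCR and 1.97, 1.43, 1.57 and 1.59 in those of ASP shGRIN2D. All pellets of ASP shGRIN2D were above all of ASP shSCR, and the lowest value came from the pellet whose polysomal library stood apart. The fitted difference was -0.61 ± 0.27 (SE, unadjusted p = 0.0323, edgeR adjusted p = 1), and -0.41 without ASP shSCR replicate 1. Without that pellet the differences of Calr (-0.51) and Canx (0.43) from ASP shDHPS were larger in size. The other gene whose pellets did not overlap in this comparison was Xbp1, with ratios of 0.52 to 0.71 in ASP shSCR and 0.30 to 0.44 in ASP shGRIN2D (0.18 ± 0.21, adjusted p = 1, and 0.10 without ASP shSCR replicate 1). Such separation of pellets was seen for 1.92% of all genes.

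Against ASP shDHPS the 2 lectin chaperones had differences of opposite sign. The ratio of Calr was 0.64 to 1.64 in ASP shSCR and 1.24 to 2.15 in ASP shDHPS, so the pellets overlapped, and the difference was -0.59 ± 0.29 (SE, edgeR adjusted p = 0.370). The ratio of Canx was 0.68 to 1.03 in ASP shSCR and 0.18 to 0.63 in ASP shDHPS, with no overlap, and the difference was 0.40 ± 0.24 (adjusted p = 0.472). Canx was the only gene of the 10 whose pellets separated in this comparison, where 6.86% of all genes did, and against NoASP shSCR none did (1.76% of all genes). Dnajb9 had a difference of 0.54 ± 0.33 against ASP shDHPS, with pellets from -0.36 to 0.69 and from -1.17 to 0.46 (adjusted p = 0.480), and of 0.34 without ASP shSCR replicate 1. The values of Hspa5 hardly differed, at 1.54 ± 0.44 (SD, n = 4) and 1.54 ± 0.34, although the 95% interval of the difference, -0.64 to 0.64, allows a change of that size in either direction. Without ASP shSCR replicate 1 the difference of Hspa5 was 0.13.

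The levels within each fraction were compared with libraries scaled within that fraction. A level is thus relative to the other mRNAs of its fraction and gives neither the number of cells nor their total RNA. Bulk libraries also cannot tell fewer cells with an mRNA from less of it per cell. No gene of the 10 passed in any of the 6 level comparisons (edgeR). In the sub-polysomal fraction 0%, 0.315% and 1.41% of all genes passed against NoASP shSCR, ASP shGRIN2D and ASP shDHPS, and in the polysomal fraction 0%, 0.0169% and 0.169%. At an unadjusted p under 0.05 there were 0, 2 and 1 of the 10 genes in the sub-polysomal and 0, 1 and 0 in the polysomal fraction, against 871, 1955 and 2833 and 1376, 1608 and 2905 of all genes. DESeq2 called 1 of the 10, Xbp1 in the sub-polysomal fraction against ASP shGRIN2D (DESeq2 adjusted p = 0.0370), where it called 1.26% of all genes. In the other level comparisons it called 0.00563% and 3.67% of all genes against NoASP shSCR and ASP shDHPS in the sub-polysomal fraction, and 0.00563%, 0.411% and 3.12% in the polysomal one.

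**Figure D4:**
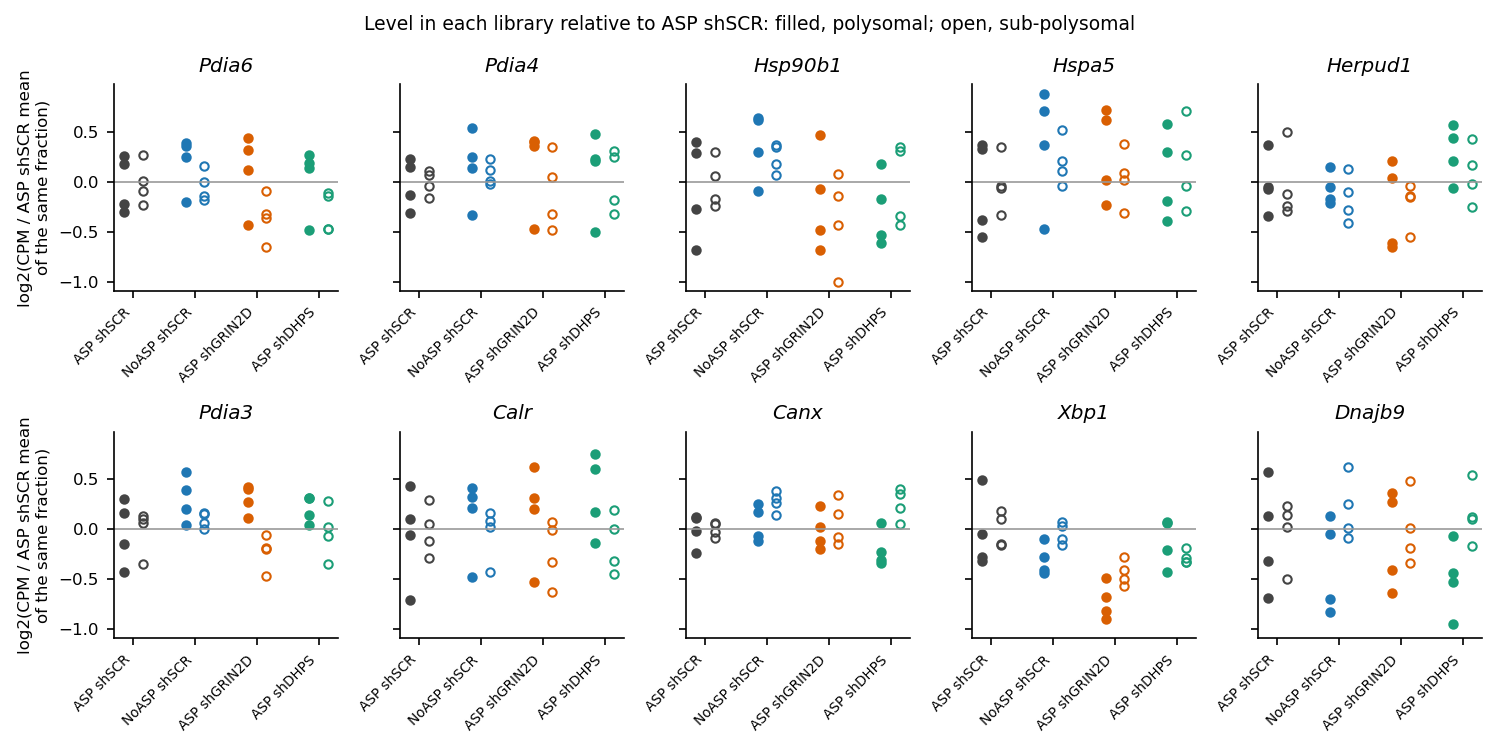
Log2 of the CPM in each library relative to the ASP shSCR mean of the same fraction (y axis), by condition (x axis), for the 10 genes, with filled circles for polysomal and open circles for sub-polysomal libraries. Xbp1 in ASP shGRIN2D is below 0 in all 8 libraries, and for the other genes the libraries of the 4 conditions mostly overlap.

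Xbp1 stood out among the levels. In the polysomal fraction it was at 209, 144, 123 and 119 CPM in ASP shSCR and at 106, 79.9, 84.5 and 93.1 CPM in ASP shGRIN2D. All 4 values of ASP shGRIN2D were below all 4 of ASP shSCR, and the difference was 0.71 ± 0.20 (SE, 95% interval 0.29 to 1.13, unadjusted p = 0.00215, edgeR adjusted p = 0.261). In the sub-polysomal fraction Xbp1 was at 96.4, 91.2, 76.2 and 76.96 CPM in ASP shSCR and at 70.2, 60.4, 57.4 and 64.1 CPM in ASP shGRIN2D, again with no overlap (0.43 ± 0.14, unadjusted p = 0.00377, adjusted p = 0.201). The highest polysomal value, 209 CPM, came from the library that stood apart. Without that pellet the differences were 0.50 (adjusted p = 0.826) in the polysomal and 0.37 (adjusted p = 0.381) in the sub-polysomal fraction. Against ASP shDHPS the polysomal values of Xbp1, 111 to 156 CPM, overlapped those of ASP shSCR, and the sub-polysomal values, 67.7 to 74.8 CPM, lay below them (0.28 ± 0.14, adjusted p = 0.309). Without ASP shSCR replicate 1 the polysomal difference from ASP shDHPS changed sign, from 0.11 to -0.10. Against NoASP shSCR the differences of Xbp1 were 0.30 ± 0.20 and 0.03 ± 0.14 in the polysomal and the sub-polysomal fraction, and 0.07 and -0.03 without that pellet. In the sub-polysomal comparison with ASP shGRIN2D the 4 epithelial markers were also higher in ASP shSCR at an unadjusted p under 0.05, by a median of 0.73, though none passed (edgeR adjusted p from 0.0562 to 0.326). Their part in the values of Xbp1 was not tested.

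Canx was the only other gene whose levels separated. Its sub-polysomal values were 322, 309, 344 and 341 CPM in ASP shSCR and 395, 429, 363 and 407 CPM in NoASP shSCR, with a difference of -0.28 ± 0.15 (adjusted p = 0.848). The sub-polysomal values of Pdia6 overlapped between ASP shSCR and ASP shGRIN2D, with a difference of 0.34 (edgeR adjusted p = 0.409). Without ASP shSCR replicate 1 the difference of Pdia6 was 0.24. Complete separation of the pellets was seen for 1 of the 10 genes in each sub-polysomal comparison, where it was seen for 3.26%, 5.50% and 9.39% of all genes against NoASP shSCR, ASP shGRIN2D and ASP shDHPS. In the polysomal fraction it was seen for 0, 1 and 0 of the 10 genes, and for 1.40%, 2.68% and 6.31% of all genes.

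Hspa5, the main chaperone, varied widely between pellets of the same condition. Its polysomal values were 708, 631, 1160 and 1187 CPM in ASP shSCR, 1188, 664, 1507 and 1697 CPM in NoASP shSCR, 934, 785, 1416 and 1521 CPM in ASP shGRIN2D and 810, 703, 1131 and 1378 CPM in ASP shDHPS. The 4 conditions thus overlapped. The difference from NoASP shSCR, -0.46 ± 0.31 (SE, adjusted p = 0.863), was the lowest of the 30 polysomal ones. For Hsp90b1 the same difference was -0.40 ± 0.28, and for Pdia3 -0.32 ± 0.19, while Dnajb9 and Xbp1 were at 0.30 ± 0.30 and 0.30 ± 0.20. None passed. Without ASP shSCR replicate 1 these differences were -0.37 for Hspa5, -0.25 for Hsp90b1, -0.22 for Pdia3 and 0.07 for Xbp1.

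Across the 32 libraries, centred within each fraction, 6 of the genes for soluble proteins (Hspa5, Hsp90b1, Calr, Pdia3, Pdia4 and Pdia6) were positively correlated with each other. Dnajb9, the cochaperone of Hspa5, was not part of this group. Their 15 pairwise Pearson correlations of log2 CPM ran from 0.325 to 0.852, with a median of 0.713, and Pdia4 with Pdia6 was highest. The 30 pairs that involve Canx, Dnajb9, Xbp1 or Herpud1 had a median of -0.055 and ran from -0.671 to 0.773. The correlations of Canx with these 6 genes ran from 0.291 for Calr to 0.773 for Hsp90b1, while those of Dnajb9 were all negative, from -0.064 for Hsp90b1 to -0.671 for Calr. Dnajb9 had a mean correlation of -0.344 with the other 9 genes and Xbp1 of -0.056. These values describe libraries that share pellets and normalization, and no test was made. They include the polysomal library of ASP shSCR replicate 1, which stood apart at 0.372 on the scale between the average fraction profiles. The remaining polysomal libraries ran from 0.777 to 1.27 on that scale. The part of that library and of this spread was not tested, either in these correlations or in those with genes outside the set. Outside the set, the genes of at least 10 CPM whose level was most like the mean of the 10 genes were Aifm1 (r = 0.858 over 32 libraries), Immt, Fam50a, Stip1, Mcm6, Vps53, Sdha, Cpsf3, Nup88 and Hsph1 (r = 0.801), out of 8908 genes compared. Stip1 and Hsph1 are cochaperones of the cytosol, and Aifm1, Immt and Sdha encode mitochondrial proteins.

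The counts of the other ER lists are to be read against the share of all genes, of which 20.8% to 23.7% passed as higher and 18.9% to 21.3% as lower, depending on the condition. Of 28 other ER chaperones and foldases, 10, 9, 14 and 11 passed as higher in the polysomal fraction in ASP shSCR, NoASP shSCR and the knockdowns ASP shGRIN2D and ASP shDHPS, and 6, 6, 6 and 4 as lower. The sulfhydryl oxidase Qsox1 was highest by its mean over 16 pellets (1.43 ± 0.49, SD), and 4 more were above 1, the nucleotide exchange factor Sil1 (1.16 ± 0.51), Fkbp7, Pdia5 and the glycoprotein folding sensor Uggt1 (1.02 ± 0.24). Creld2 was at -0.95 ± 0.37, below 0 in all 16 pellets. The median over the list was 0.36, against 1.36 for the 10 genes and -0.05 for all genes.

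Of 24 genes of the translocon, signal peptidase and oligosaccharyltransferase, which bring the new chain into the ER and process it, 10, 11, 11 and 13 passed as higher and 5, 6, 6 and 4 as lower. Stt3a, a catalytic subunit of the oligosaccharyltransferase, was at 1.44 ± 0.20 (SD, n = 16), Rpn2 at 1.41 ± 0.35 and Sec62 at 1.33 ± 0.33, while Tram1 was at -0.98 ± 0.41. Of 20 genes of ER-associated degradation, 5, 6, 6 and 5 passed as higher, near the share of all genes, and 7, 9, 8 and 6 as lower. The ATPase gene Vcp was at 1.72 ± 0.41, and Edem1, which helps send misfolded glycoproteins to degradation, at -1.20 ± 0.25, so Herpud1 lay near the upper end of this group.

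Of the 6 genes for sensors of the unfolded protein response and their proteases, too few for a share to be told from that of all genes, 2, 3, 2 and 3 passed as higher and 1 as lower in each condition. Atf6b was at 1.21 ± 0.50 (SD, n = 16), Atf6 at 1.07 ± 0.25 and Mbtps1, a protease that cleaves ATF6, at -0.54 ± 0.25. Of 11 counted genes of the PERK branch and stress-induced factors, 0, 2, 1 and 1 passed as higher and 5, 5, 6 and 4 as lower. Ero1a is in this list and also among the other chaperones and foldases, so it counts in both. Atf4, the transcription factor of the PERK branch, was at -1.32 ± 0.32 and its target Ddit3 at -1.07 ± 0.41, both below 0 in 16 of 16 pellets, where 9 of the 10 genes of the folding machinery were above 0 in 16 of 16.

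**Figure D5:**
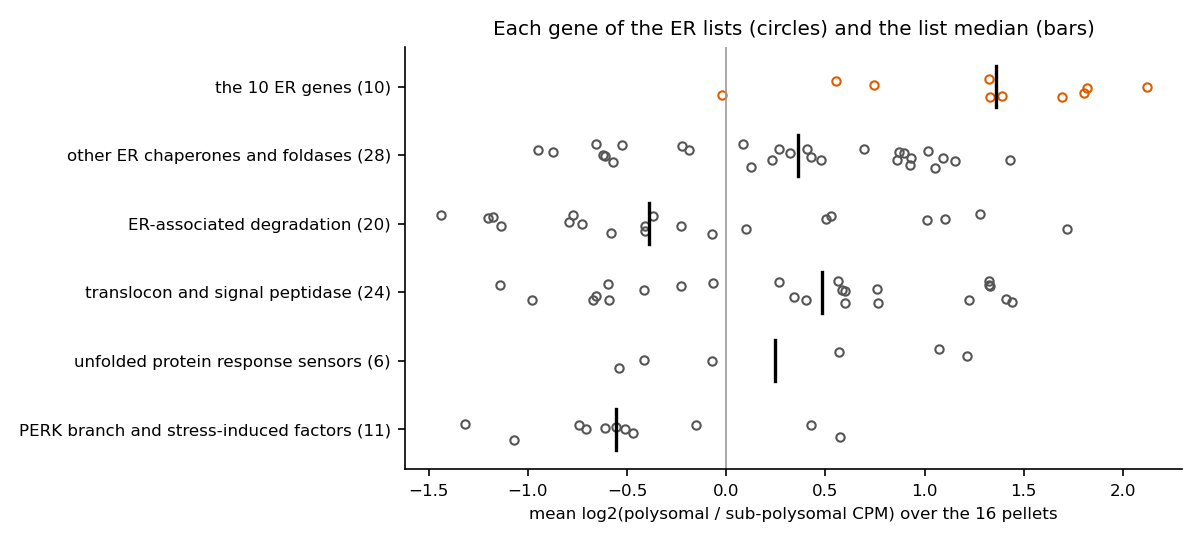
Mean log2 ratio of polysomal to sub-polysomal CPM over the 16 pellets (x axis) for each gene (circles) of the 6 ER lists (y axis, number of genes in parentheses; vertical jitter carries no value), with a bar at the list median. The medians run from 1.36 for the 10 genes to -0.56 for the PERK branch and stress-induced factors.

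Between conditions, none of these other ER genes passed for the ratio (edgeR). At an unadjusted p under 0.05 there were 1, 1 and 6 of the 28 other chaperones, 0, 0 and 3 of the 20 degradation genes, 0, 0 and 5 of the 24 translocon genes, 0, 0 and 2 of the 6 sensors and 1, 0 and 2 of the 11 PERK-branch genes against NoASP shSCR, ASP shGRIN2D and ASP shDHPS, where the share of all genes was 1.93%, 3.22% and 13.6%. The differences of largest size were 0.71 ± 0.47 (SE) for Fkbp14, -0.997 ± 0.28 for Sil1 and 0.84 ± 0.26 for Tmx3 among the other chaperones. Among levels, 3 genes passed, all in the sub-polysomal fraction against ASP shDHPS, where 1.41% of all genes passed. The ER oxidase Ero1b (-0.70 ± 0.18, edgeR adjusted p = 0.0453) and the stress-induced transcription factor Atf3 (-1.21 ± 0.24, adjusted p = 0.00773) were lower in ASP shSCR, and Cebpb (0.71 ± 0.19, adjusted p = 0.0469), another transcription factor, was higher. In the same comparison the epithelial keratins Krt8, Krt18 and Krt19 were higher in ASP shSCR, by 0.74 ± 0.20 (adjusted p = 0.0490), 1.00 ± 0.24 (adjusted p = 0.0320) and 1.04 ± 0.18 (adjusted p = 0.00221), while Epcam was at 0.54 ± 0.18 (adjusted p = 0.138). The part of such shifts in the ER genes was not tested.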

How the data were processed

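The deposited counts were made by the authors, who per the labels and methods trimmed reads with Trim Galore 0.6.6, checked them with FastQC 0.11.9, aligned them with STAR 2.6.1 to GRCm39, quantified genes with Salmon 1.4.0, rounded the estimates to whole counts and dropped genes without counts in most replicates of every group. The study's own testing used DESeq2 1.34.0. Here the counts were fitted with edgeR 4.0.16 (R 4.3.3, quasi-likelihood test, TMM scaling, Benjamini-Hochberg adjustment over 17757 genes). Ratios used all 32 libraries with a term for each pellet and a ratio for each condition, and levels used the 16 libraries of a fraction. CPM for levels was scaled within a fraction and is not comparable between fractions, and CPM for ratios was scaled over all libraries. Pellet ratios used a prior count of 2. DESeq2 1.42.0 and other settings were alternatives. The fits of the ratio difference and of the polysomal level against ASP shDHPS were tried on simulated data. The ratios within a condition and the other comparisons were not. The 10 genes and the lists were chosen with earlier results of these data known. Besides the 10 genes, those named were, for each list and comparison, up to 4 genes past the threshold with the largest differences (or the largest difference where none passed), the 10 genes most like the set, the silenced genes, and in the closing section genes chosen after their values were seen or by a promoter match. The cell-type markers used to check the labels were named as well where they were counted, whether or not they passed. Lyz2, Cdh5 and Pdgfrb were also listed as markers of other cells but were not among the counted genes. Gene lengths came from GENCODE M21 and promoters from RefSeq. Depth was 12870563 to 25639437 counts per library.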

Additional observations from a re-analysis of the deposited data

Results flagged for a closer look

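In 120 groups of 4 values (ratios and CPM of the 10 genes by condition), 5 had a highest or lowest value that stood far from the other 3 by Dixon's test, where chance gives about 6. The log2 ratio of Pdia3 in ASP shSCR replicate 1 was 0.31, against 1.22 to 1.32 in the other pellets of that condition. The log2 ratio of Xbp1 in the same pellet was 0.71, against 0.52 to 0.55. Both come from the pellet whose polysomal library stood apart. The log2 ratio of Xbp1 in ASP shGRIN2D replicate 2 was 0.30, against 0.42 to 0.44. The log2 ratio of Hsp90b1 in ASP shDHPS replicate 3 was 1.28, against 1.63 to 1.66. The polysomal level of Pdia4 in ASP shGRIN2D replicate 2 was 147 CPM, against 261 to 270.0 CPM.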

How the results depend on the processing

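None of the 10 genes changed the direction of a called result under any alternative run. Between conditions, the only call gained was Xbp1 in the sub-polysomal level against ASP shGRIN2D with DESeq2 (1 of the 10 genes, 0.43, adjusted p = 0.0370), where other alternatives gave none. Within conditions the number of genes called was 9 in ASP shSCR without any 1 pellet and 8 to 9 in the other 3 conditions, and with DESeq2 size factors it was 8 in NoASP shSCR and ASP shGRIN2D, Xbp1 being lost (0.31, adjusted p = 0.100, and 0.33, adjusted p = 0.0806). Scaling within each fraction moved the median ratio of all genes by up to 0.15. Among the genes called in ASP shSCR in either direction, it raised the share called as higher from 52.4% to 65.1%.

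Counts over all genes moved more. For the ratio against ASP shDHPS, 37 genes passed, with 626 by DESeq2, 0 with DESeq2 size factors, 184 with scaling within fractions, 266 with at least 10 counts in every library, 0 with the 2 conditions alone, 0 with no pellet term and 0 to 159 without 1 pellet (0 without ASP shSCR replicate 4). For the sub-polysomal levels against ASP shGRIN2D and ASP shDHPS, 56 and 251 genes passed, 224 and 651 by DESeq2, and 23 to 64 and 80 to 370 without 1 pellet. For the polysomal levels 3 and 30 passed, 73 and 554 by DESeq2, and 0 to 98 and 0 to 304 without 1 pellet (98 and 304 without ASP shSCR replicate 3). The polysomal counts were 7 with DESeq2 size factors and 6 with at least 10 counts (ASP shGRIN2D), and 0 and 1 with the 2 conditions alone. The cause was not tested.

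The labels do not say that replicate numbers pair pellets, and not every same-numbered pair deviated together. Over 24 such pairs the median correlation of deviations was 0.166 (minimum -0.27), against -0.05 over 72 pairs of different number, and 8 of 16 pellets correlated best with their own number. Whether pellets of the same number share a factor was not tested. With a replicate block, 0 of the 10 genes passed between conditions (Xbp1 sub-polysomal against ASP shGRIN2D, 0.43, adjusted p = 0.0784), and 231, 195, 758, 27 and 405 genes passed where 37, 56, 251, 3 and 30 did. In the polysomal fraction 3 of the 10 genes were lowest at number 2 in 4 of 4 conditions, and 6 in at least 3 (1 and 2 genes in the sub-polysomal fraction). The share of all genes that did so is not given here, so these counts do not set the 10 genes apart. Polysomal Hspa5 was lowest at number 2 and highest at number 4 in 4 of 4.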

Other observations

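Among the other ER chaperones and foldases, 9 of 28 had a mean ratio below 0, where 47.7% of all genes were above 0. Of the 9, 5 are given first, chosen after their values were seen. The log2 ratio of polysomal to sub-polysomal CPM was -0.87 ± 0.47 (SD over 16 pellets) for Manf and -0.66 ± 0.26 for Txndc5, a thioredoxin-domain protein, each below 0 in all 16 pellets. Sdf2l1, a cofactor of Hspa5, was at -0.62 ± 0.53, Cnpy3 at -0.57 ± 0.30 and Cnpy2 at -0.53 ± 0.52. The disulfide isomerase genes P4hb and Pdia5 were at 0.47 ± 0.40 and 1.051 ± 0.486. In the same list, Tmx1 was at 0.23 ± 0.45, Tmx3 at 0.86 ± 0.48, Erp44 at 0.89 ± 0.22 and Erp29 at -0.22 ± 0.29.

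A promoter was at hand for 23 of the 28 other chaperones, 15 of 20 degradation genes, 18 of 24 translocon genes, 5 of 6 sensors and 11 of 12 PERK-branch genes, and the rest were not searched. In these, an ERSE was found for Dnajc3, Creld2, Ero1b, Syvn1 and Derl3, and an ERSE-II for Dnajb11. The mean ratio was above 0 for 4 of these 6 genes, where it was above 0 for 47.7% of all genes. The 4 were Syvn1 (0.50 ± 0.42), Dnajb11 (0.43 ± 0.37), Ero1b (0.41 ± 0.42) and Dnajc3 (0.32 ± 0.47). The ratio was below 0 for Creld2 (-0.95 ± 0.37) and Derl3 (-1.18 ± 0.89), the latter with a mean of only 3.22 counts per library.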
